A study of Mus musculus with 12 samples.

Results

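Interleukins are secreted signalling proteins of immune and stromal cells, and their receptors are assembled from ligand-binding chains and signalling chains that are often shared within a family. Of 55 rows of the deposited expression table whose symbol begins with Il and a digit, 44 averaged 5 or more normalized counts across the 12 libraries, among 16218 genes in all and 14906 above that mean. These 44 are described here, as 12 ligands, 30 receptor chains and 2 soluble antagonists. Just inside the threshold lay Il1f9 with a mean of 6.99 and Il1a with 7.0, and just outside it Il9r with 4.80 and Il13ra2 with 4.41. The 11 rows below it, 2 of them at 0 in every library, were not tested.

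The RNA came from hearts of wild-type female mice aged 12 weeks, in 3 groups of 4 animals with 1 library each. Sham animals were operated on without infarction. In the other animals the left anterior descending coronary artery had been tied off permanently, which infarcts the wall of the left ventricle, and the group names then add either the vehicle, phosphate-buffered saline (MI+PBS), or the matrix proteoglycan agrin (MI+Agrin). RNA was taken 2 weeks after infarction, and the sources used here do not state the dose, form and route of agrin. The design text names a further group of infarcted wild-type animals that is not analysed here. The labels name the heart and no region of it, so the shares of scar, border and remote muscle in each sample are not known.

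Members of the IL-1 family act through receptors that recruit the adaptor MyD88 and switch on NF-kB, and they are held in check by the receptor antagonist encoded by Il1rn and by the decoy receptor encoded by Il1r2, which binds the ligand without signalling. IL-6 and IL-11 bind their own receptor chains and signal through the shared chain gp130 (Il6st) to JAK kinases and STAT3. Cytokines of the common gamma chain family, among them IL-2, IL-7, IL-15 and IL-21, share Il2rg, and the chain encoded by Il4ra serves both IL-4 and IL-13. In the injured heart these systems are known for leukocyte recruitment, fibroblast activation and the turn from inflammation to scar repair.

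The starts of 4 genes are shown because Il11, Il6 and Il1rn were the ligand and antagonist genes with the largest rises after infarction, and because Il4ra had the smallest p-value of all 44. Each is the 300 bases from 250 before to 50 after the start of transcription, 5′ to 3′ on the gene's own strand, from RefSeq on GRCm38.p6, with matches to searched motifs in capitals. Il6 was added to this set after its values were seen. The regions are chr7:4778092-4778391 on the minus strand for Il11, chr2:24336610-24336909 on the plus strand for Il1rn, chr5:30012864-30013163 on the plus strand for Il6 and chr7:125552021-125552320 on the plus strand for Il4ra.
Il11: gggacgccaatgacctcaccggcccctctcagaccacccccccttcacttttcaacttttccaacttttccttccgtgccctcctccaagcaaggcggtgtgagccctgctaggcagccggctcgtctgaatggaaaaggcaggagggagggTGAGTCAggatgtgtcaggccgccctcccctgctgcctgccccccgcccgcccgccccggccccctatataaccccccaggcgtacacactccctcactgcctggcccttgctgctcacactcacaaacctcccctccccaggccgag
Il1rn: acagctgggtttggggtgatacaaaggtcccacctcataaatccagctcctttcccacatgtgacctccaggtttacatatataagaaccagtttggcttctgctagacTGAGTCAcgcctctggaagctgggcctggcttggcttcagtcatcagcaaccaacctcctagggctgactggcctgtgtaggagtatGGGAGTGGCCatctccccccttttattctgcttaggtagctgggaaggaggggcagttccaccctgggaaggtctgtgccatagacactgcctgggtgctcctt
Il6: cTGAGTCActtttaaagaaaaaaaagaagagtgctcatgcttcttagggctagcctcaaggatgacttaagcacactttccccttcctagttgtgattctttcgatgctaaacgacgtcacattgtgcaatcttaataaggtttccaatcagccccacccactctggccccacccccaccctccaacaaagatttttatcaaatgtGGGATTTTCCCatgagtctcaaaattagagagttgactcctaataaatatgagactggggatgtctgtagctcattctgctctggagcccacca
Il4ra: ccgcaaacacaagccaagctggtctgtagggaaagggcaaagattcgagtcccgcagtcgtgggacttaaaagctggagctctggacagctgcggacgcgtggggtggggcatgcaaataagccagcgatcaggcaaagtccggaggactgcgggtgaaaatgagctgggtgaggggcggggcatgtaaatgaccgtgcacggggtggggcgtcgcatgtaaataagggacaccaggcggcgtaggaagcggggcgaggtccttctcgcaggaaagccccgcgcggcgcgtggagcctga

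The capitals TGAGTCA in the Il11, Il1rn and Il6 windows are matches to the AP-1 motif TGANTCA, and lie 98, 141 and 249 bases before the start. The longer runs in the Il1rn window, 54 bases before the start, and in the Il6 window, 44 bases before it, match the NF-kB motif (GGGA, any 4 bases, CC), and in Il6 matches on both strands overlap by all but 1 base. The Il4ra window held none of the searched motifs, which also included the STAT motif TTCNNNGAA and TATAAA, each on both strands. Its RefSeq start lies 151 bases from the nearest principal start in the GENCODE annotation, against 7 for Il1rn and 0 for Il11 and Il6. Il11 has 2 starts and Il1rn has 3 starts in the table, and the AP-1 match stood at the printed start only. Of 32851 promoters of this length, 7.8% held the AP-1 motif, 20.7% the NF-kB motif, 8.3% the STAT motif and 13.6% TATAAA. Counted by gene, with a match at any of its starts, the shares of 27025 genes were 9.0%, 22.9%, 9.6% and 15.7% in the same order. Of the 44 interleukin genes, 36 were in the table, and counted by gene they held the AP-1 motif in 8, NF-kB in 14, STAT in 6 and TATAAA in 6. Among 17 matched genes that were higher after infarction, these counts were 3, 6, 2 and 4. A match describes the letters and is not a measured binding site.

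Normalized totals ran from 20054225 to 22752342 per library, and 15799 to 15898 genes were detected in each. MI+PBS replicate 2 lay farther along the first principal component than the other MI+PBS libraries (45.16 against 21.14 to 24.9), and on the second component MI+Agrin replicate 1 lay far from all other libraries (-40.17). The tissue label was matched by cardiomyocyte marker genes, whose summed level was 815253 to 1523937 normalized counts in every library, and none of the 6 was at 0. Values below are normalized counts in the order of the replicate numbers, which are 2, 3, 4 and 5 for sham, 1, 2, 3 and 5 for MI+PBS, and 1, 3, 4 and 5 for MI+Agrin. Group means are given ± SD (n = 4) and log2 fold changes, on the scale of log2(normalized count + 1), ± SE, with p-values of limma adjusted by the Benjamini-Hochberg method over all genes tested. That scale understates the change of the lowest genes.

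The infarcted hearts given vehicle were first set against sham hearts, which describes the interleukin genes 2 weeks after infarction. Of the 44 genes, 25 (56.8%) passed an adjusted p of 0.05, against 44.4% of all genes tested. Rises made up most of them, with 19 genes higher (43.2%, against 22.6% of all genes) and 6 lower (13.6%, against 21.8%). The median log2 fold change was 0.36 over the 44 genes and -0.01 over all genes. Among ligands 4 of 12 were higher and 3 lower by limma, 4 and 2 by edgeR, and 5 and 2 by DESeq2. Among receptor chains 14 of 30 were higher and 3 lower by limma, 12 and 3 by edgeR, and 12 and 4 by DESeq2. In 23 of the 44 genes (52.3%) the 4 libraries of the groups did not overlap, against 41.9% of all genes.

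By family, 8 of 14 genes of the IL-1 family rose (7 by edgeR) and none fell, with a median log2 fold change of 0.82. Among all genes tested, 22.6% were higher and 21.8% lower, with a median of -0.01. In the IL-6 family 3 of 5 rose and none fell (1 fell by DESeq2). The common gamma chain family had 4 of 10 higher and 3 lower, counting Il13ra1, the partner of Il4ra in the IL-13 receptor. In the IL-17 family 2 of 6 rose and 1 fell (1 rose by edgeR and by DESeq2). The IL-10 family had 1 rise and 1 fall among 4 genes, and neither gene of the IL-12 family passed by limma, at an unadjusted p of 0.05, by edgeR or by DESeq2.

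**Figure D1:**
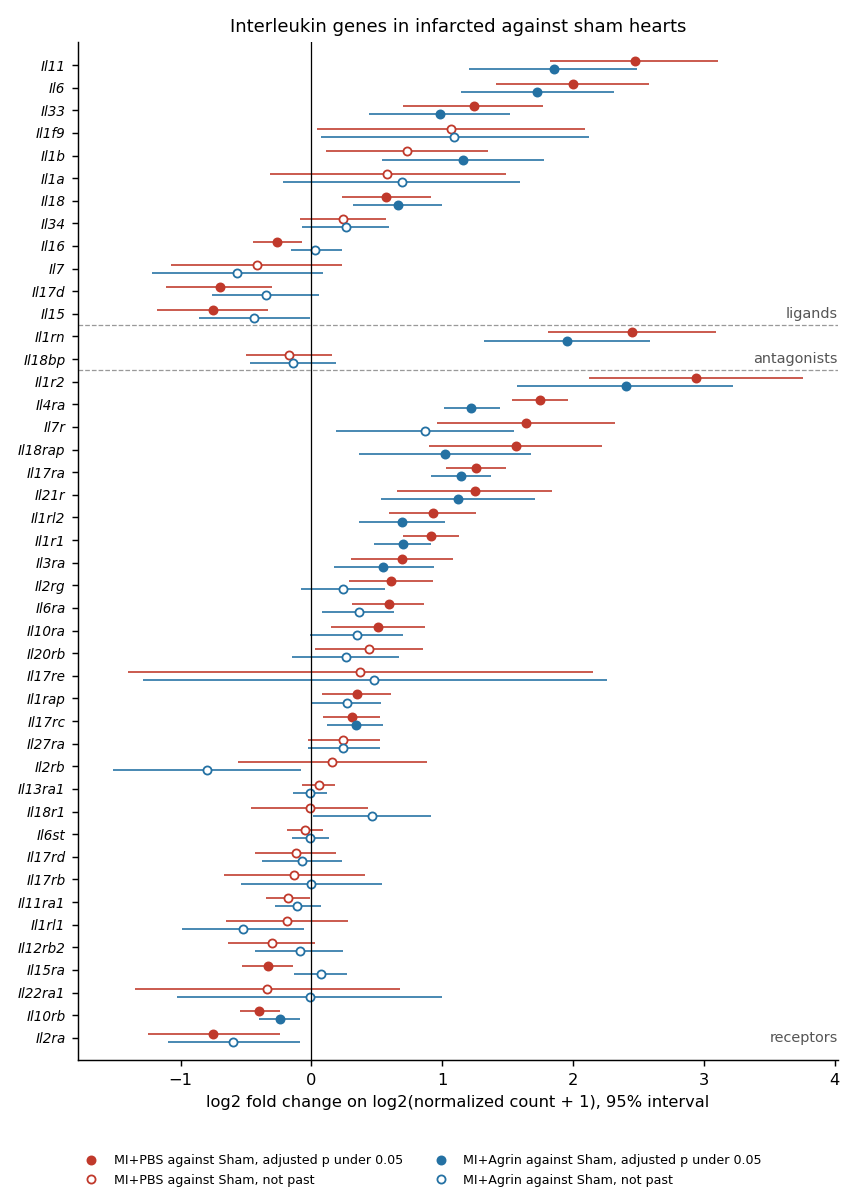
Log2 fold change of each of the 44 interleukin genes (horizontal axis, with 95% intervals) in MI+PBS (red) and MI+Agrin (blue) against the same sham libraries, with ligands, antagonists and receptors apart and filled points past an adjusted p of 0.05. In MI+PBS 19 genes were higher and 6 lower, and in MI+Agrin 15 were higher and 1 lower.

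Il11, which encodes a cytokine of the IL-6 family known to act on fibroblasts, was near the floor of detection in sham hearts and had the highest fold change of the ligands. It stood at 4.04, 7.45, 5.28 and 3.94 in sham libraries, at 36.0, 46.6, 33.1 and 19.7 in MI+PBS and at 17.2, 19.7, 17.8 and 30.1 in MI+Agrin. All 8 infarcted libraries lay above all sham libraries, whereas the infarcted groups overlapped. The group means were 5.18 ± 1.63, 33.8 ± 11.1 and 21.2 ± 6.01, and the change in MI+PBS was 2.47 ± 0.30 (adjusted p = 7.09e-05). Sham libraries with recovered reads held 4 to 7 reads of this gene, so its fold change rests on few reads. In mm10 the gene lies on the minus strand of chromosome 7 from 4772373 to 4782859. Its receptor chain Il11ra1, which has near-identical copies in the mouse genome and is uncertain for that reason, did not pass (-0.18 ± 0.08, adjusted p = 0.0827).

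Il6, the gene of the founding cytokine of that family, was also higher in infarcted hearts, at a low level. Sham libraries held 13.1, 7.45, 9.51 and 10.8, MI+PBS libraries 35.0, 76.6, 40.3 and 31.5 and MI+Agrin libraries 30.4, 34.5, 35.7 and 42.3. The infarcted libraries again lay above sham without overlap, and MI+PBS replicate 2 was the highest of the 12. The rise in MI+PBS was 2.00 ± 0.27 (adjusted p = 0.00014), and 1.72 without that replicate. Il6ra, the ligand-binding chain, stood at 280.0, 253, 266 and 311 in sham and at 458, 367, 391 and 458 in MI+PBS, a rise of 0.59 ± 0.13 (adjusted p = 0.0025) without overlap. Its MI+Agrin values were 305, 314, 362 and 457, of which replicate 1 lay below the highest sham library. The shared signalling chain Il6st held 8771 ± 203 in sham and 8492 ± 698 in MI+PBS and differed by -0.05 ± 0.07, with a 95% interval of -0.19 to 0.09.

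Il1rn, whose product occupies the IL-1 receptor without activating it, had the highest fold change among the ligand-like genes after Il11. Its values were 31.3, 34.1, 26.4 and 33.5 in sham, 160.3, 344, 137 and 123 in MI+PBS and 88.2, 112, 186 and 128 in MI+Agrin. Every infarcted library lay above every sham library, and MI+PBS replicate 2 stood far above the other infarcted libraries. The means were 31.3 ± 3.48, 191 ± 103 and 128 ± 41.6, with a rise of 2.45 ± 0.29 in MI+PBS (adjusted p = 6.94e-05) that was 2.13 without replicate 2. It lies in mm10 on chromosome 2 from 24336853 to 24351494. Il18bp, the soluble binding protein of IL-18, did not pass (-0.17 ± 0.15, adjusted p = 0.396), with 277, 316, 282 and 285 in sham and 343, 250.2, 195 and 263 in MI+PBS. MI+Agrin libraries held 224, 249.7, 326 and 262 of Il18bp, and the 3 groups overlapped.

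The agonist ligands of the IL-1 family differed in size of change. Il33, an alarmin stored in the nuclei of stromal and endothelial cells, held 835, 664, 394 and 567 in sham, 1097, 1314, 1561 and 1704 in MI+PBS and 1686, 897, 1416 and 877 in MI+Agrin. No infarcted library fell as low as the highest sham library, and the rise in MI+PBS was 1.24 ± 0.25 (adjusted p = 0.00155). Il33 had the highest level per kilobase of exon of the 12 ligands in sham, 213.2 ± 63.8 normalized counts. Il18, the gene of a cytokine cut to its active form by caspase-1, stood at 31.3, 31.9, 32.8 and 28.6 in sham, 45.7, 52.4, 42.4 and 46.3 in MI+PBS and 53.7, 38.5, 59.1 and 49.9 in MI+Agrin. It rose by 0.57 ± 0.16 (adjusted p = 0.0107) without overlap.

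Il1b, the gene of the secreted IL-1 that caspase-1 also activates, did not pass in MI+PBS. Its values were 49.5, 34.1, 22.2 and 54.2 in sham, 50.5, 71.8, 51.7 and 86.7 in MI+PBS and 60.8, 80.9, 99.5 and 111 in MI+Agrin. MI+PBS overlapped sham (0.73 ± 0.29, adjusted p = 0.0533), whereas all MI+Agrin libraries were above sham. The p of Il1b in MI+PBS lay beside the threshold and passed it without sham replicate 2 (0.0438), sham replicate 5 (0.0302), MI+PBS replicate 1 (0.0467) or MI+Agrin replicate 1 (0.0445). Il1a and Il1f9, which encodes IL-36 gamma, were at the edge of detection. Il1a held 3.03, 7.45, 2.11 and 7.88 in sham, 12.6, 3.88, 6.20 and 8.87 in MI+PBS and 9.12, 6.91, 9.39 and 6.58 in MI+Agrin, and Il1f9 held 4.04, 4.26, 5.28 and 0.99, 8.75, 4.85, 10.3 and 8.87 and 9.12, 2.96, 14.1 and 10.3. Neither passed, at 0.58 ± 0.42 and 1.07 ± 0.47, and their groups overlapped.

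**Figure D2:**
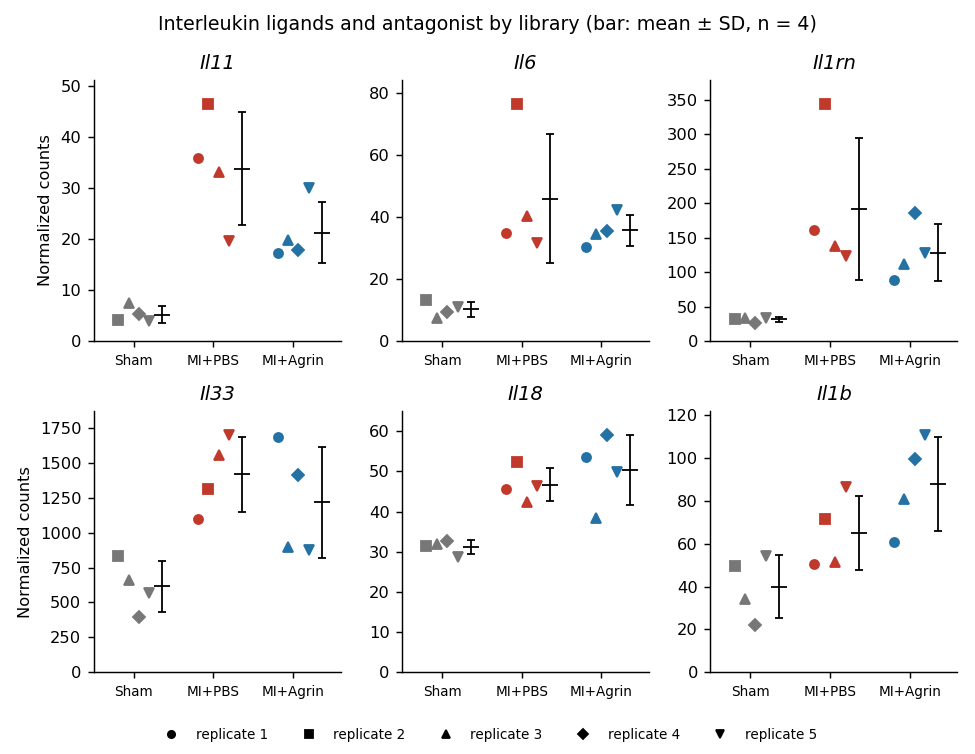
Normalized counts (vertical axis, from 0) of 5 interleukin ligand genes and the antagonist gene Il1rn in each of the 12 libraries, with the marker shape giving the replicate number and black bars the mean ± SD of 4 libraries. Sham libraries of Il11, Il6, Il1rn, Il33 and Il18 lay below all infarcted libraries, and Il1b overlapped between sham and MI+PBS.

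Of the 7 receptor chains of the IL-1 family among the 44 genes, 5 rose after infarction (Il1r1, Il1r2, Il1rl2, Il18rap and Il1rap), and Il18r1 and Il1rl1 did not pass. Among all genes tested, 22.6% were higher. Il1r1, the signalling receptor, held 1016, 1252, 1029 and 1069 in sham, 1728, 2168, 2023 and 2327 in MI+PBS and 1967, 1668, 1867 and 1583 in MI+Agrin. Infarcted and sham libraries did not overlap, and the rise in MI+PBS was 0.91 ± 0.10 (adjusted p = 4.14e-05). Il1r2, the decoy, held 4.04, 9.58, 4.23 and 12.8 in sham, 36.9, 115, 47.5 and 61.1 in MI+PBS and 38.5, 33.6, 44.1 and 47.0 in MI+Agrin. Its rise of 2.94 ± 0.38 (adjusted p = 0.000103) was the highest of the 44 genes and stood at 2.62 without MI+PBS replicate 2. Per kilobase of exon Il1r2 nevertheless remained far below Il1r1, at 34.2 ± 18.3 against 324.0 ± 40.0 normalized counts in MI+PBS.

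Il1rl2, the receptor of the IL-36 cytokines, stood at 74.8, 73.5, 52.8 and 69.9 in sham, 133, 150.3, 99.2 and 137 in MI+PBS and 119.6, 106, 95.7 and 117 in MI+Agrin, again with sham below every infarcted library. It rose by 0.93 ± 0.15 (adjusted p = 0.000477). Il18rap, the accessory chain of the IL-18 receptor, held 7.08, 6.39, 7.40 and 14.8 in sham, 27.2, 32.0, 28.9 and 20.7 in MI+PBS and 13.2, 13.8, 21.6 and 27.3 in MI+Agrin. It rose by 1.56 ± 0.31 in MI+PBS (adjusted p = 0.0013) from a low level. Il18r1, the chain that binds IL-18, held 184 ± 39.8 and 186 ± 53.6 in the same groups and differed by -0.01 ± 0.21. Il1rap, the accessory chain shared by several IL-1 receptors, stood at 243, 307, 226 and 297 in sham and 317, 372, 335 and 330.2 in MI+PBS, a rise of 0.35 ± 0.12 (adjusted p = 0.034) with groups close but apart. MI+Agrin libraries held 337, 265, 314 and 373 of Il1rap and overlapped both. Il1rl1, the receptor of IL-33, did not pass (-0.19 ± 0.21, adjusted p = 0.506), with means of 64.9 ± 13.3 and 57.0 ± 12.8.

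Il4ra, the chain through which IL-4 and IL-13 signal to STAT6, separated the 3 groups completely. It stood at 812, 903, 953 and 827 in sham, 2645, 3531, 2793 and 2825 in MI+PBS and 2021, 1782, 2346 and 2039 in MI+Agrin. No 2 groups overlapped, with MI+Agrin between sham and MI+PBS. The means were 874 ± 66.2, 2948 ± 396 and 2047 ± 231, and the rise in MI+PBS was 1.75 ± 0.10 (adjusted p = 1.7e-06). It lies in mm10 on the plus strand of chromosome 7 from 125552120 to 125579474, and 9.5% of its exon bases overlap a gene on the opposite strand. Its partner in the IL-13 receptor, Il13ra1, held 2242 ± 118 in sham and 2329.8 ± 23.7 in MI+PBS and differed by 0.06 ± 0.06, with an interval of -0.07 to 0.18. The genes of IL-4 and IL-13 themselves were not among the 55 interleukin rows of the expression table.

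Among the other chains of the common gamma family, Il7r, which binds IL-7, rose by 1.64 ± 0.31 (adjusted p = 0.00117) and by 1.37 without MI+PBS replicate 2. Its values were 44.5, 37.3, 30.6 and 57.1 in sham, 132, 232, 116 and 82.8 in MI+PBS and 53.7, 60.2, 92.9 and 113 in MI+Agrin, so that only MI+PBS stood wholly above sham. Il7 itself did not pass (-0.42 ± 0.30, adjusted p = 0.282). The Il7 libraries held 25.3, 11.7, 15.8 and 12.8 in sham, 9.72, 15.5, 14.5 and 7.88 in MI+PBS and 9.12, 13.8, 8.45 and 10.3 in MI+Agrin, which overlap. Il21r, the IL-21 receptor, stood at 81.9, 96.9, 51.8 and 43.3 in sham, 176, 181, 117 and 157 in MI+PBS and 150.0, 112, 221 and 112 in MI+Agrin. Sham lay below both infarcted groups, and the rise in MI+PBS was 1.25 ± 0.27 (adjusted p = 0.0028). Il2rg, the shared gamma chain, held 390.2, 352, 259 and 359.6 in sham, 586, 521, 504 and 448 in MI+PBS and 324, 352, 476 and 457 in MI+Agrin. It rose by 0.61 ± 0.15 (adjusted p = 0.00531), but 30.5% of its exon bases are shared with another annotated gene on the same strand, which makes its counts uncertain.

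Il17ra, the chain common to most IL-17 receptors, had the second-smallest p-value among the 44 genes. It held 237, 231, 265 and 260.1 in sham, 546, 747, 534 and 571 in MI+PBS and 509.8, 505, 604 and 571 in MI+Agrin. Sham libraries lay in a narrow band below all infarcted libraries, and the rise was 1.26 ± 0.11 (adjusted p = 1.47e-05). Its partner Il17rc rose less, by 0.31 ± 0.10 (adjusted p = 0.0226), from 177, 204, 167 and 192 in sham to 231, 234, 209 and 243 in MI+PBS. MI+Agrin libraries held 224, 205, 265 and 245 of Il17rc, also above sham. The call of Il17rc in MI+PBS was lost without sham replicate 2 (adjusted p = 0.0577), sham replicate 4 (0.0699) or MI+PBS replicate 5 (0.0585). It was also lost by edgeR (adjusted p = 0.0599) and DESeq2 (0.0597). Il17rb, Il17rd and Il17re did not pass.

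Il3ra, the specific chain of the IL-3 receptor, held 105, 116, 95.1 and 138 in sham, 209.9, 205, 119.9 and 214 in MI+PBS and 168, 164, 184 and 149 in MI+Agrin. It rose by 0.69 ± 0.18 (adjusted p = 0.00736), although MI+PBS replicate 3 lay within the sham range. Il10ra, the IL-10 binding chain, stood at 411, 356, 283 and 358 in sham, 622, 451, 432 and 507 in MI+PBS and 341, 438, 440.2 and 593 in MI+Agrin. It rose by 0.51 ± 0.16 (adjusted p = 0.023), a call lost without sham replicate 4 (adjusted p = 0.0741) or MI+PBS replicate 1 (0.0693). The call of Il1rap, described above, was lost without sham replicate 2 (0.0919) or 4 (0.106) and without MI+PBS replicate 2 (0.091), 3 (0.0566) or 5 (0.0538). By edgeR (adjusted p = 0.099) and DESeq2 (0.0951) Il1rap did not pass either.

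**Figure D3:**
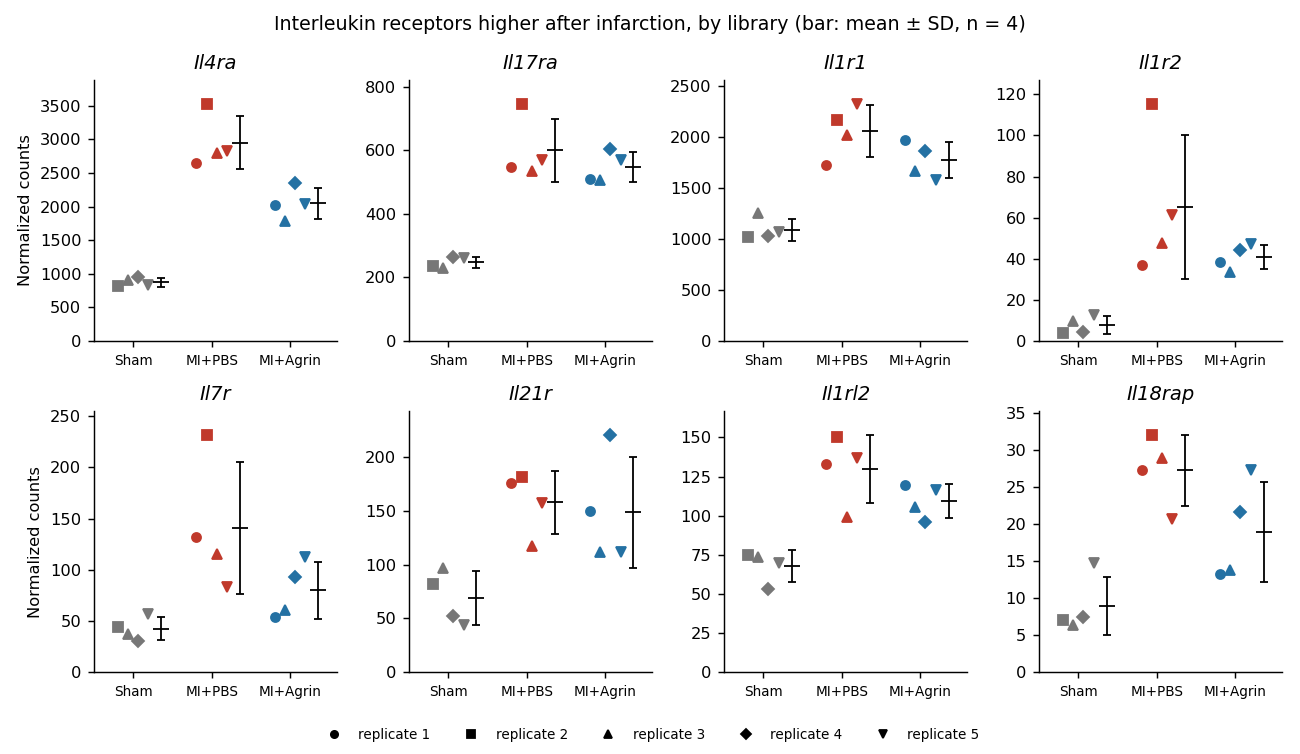
Normalized counts (vertical axis, from 0) of 8 interleukin receptor genes that were higher in MI+PBS than in sham, in each library, with the marker shape giving the replicate number and black bars the mean ± SD of 4 libraries. MI+PBS lay above sham in all 8, and Il4ra alone of the 8 shows MI+Agrin apart from both other groups.

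The 6 genes that fell include the ligand and the receptor of the IL-15 system, which is known for sustaining natural killer cells and memory T cells. Il15 held 103, 71.3, 79.2 and 120.2 in sham, 64.1, 57.2, 61.0 and 37.5 in MI+PBS and 60.8, 72.1, 68.5 and 68.7 in MI+Agrin. MI+PBS lay below sham without overlap, a change of -0.75 ± 0.20 (adjusted p = 0.00764), and MI+Agrin replicate 3 reached just into the sham range. Il15ra, the chain that presents IL-15 to neighbouring cells, held 505, 544, 595 and 589 in sham, 466, 381, 517 and 415 in MI+PBS and 595, 577, 557 and 614 in MI+Agrin. Its change in MI+PBS was -0.33 ± 0.09 (adjusted p = 0.00972), with MI+PBS replicate 3 inside the sham range. Il2rb, the chain through which IL-2 and IL-15 signal, did not pass (0.16 ± 0.33, adjusted p = 0.719).

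Il17d, a ligand of the IL-17 family, stood at 47.5, 53.2, 56.0 and 57.1 in sham and within a narrow band of 34.0, 32.0, 32.0 and 31.5 in MI+PBS, a change of -0.70 ± 0.19 (adjusted p = 0.00883). In MI+Agrin it spread over 58.8, 40.5, 29.1 and 43.3, across both other groups. Il16, which encodes a chemoattractant that binds CD4, held 492, 382, 379 and 390.1 in sham, 312, 343, 337 and 376 in MI+PBS and 419, 413, 409 and 433 in MI+Agrin. Its change of -0.26 ± 0.09 (adjusted p = 0.0309) was lost without sham replicate 2 (-0.17, adjusted p = 0.0878), which was the highest sham library. It was lost without MI+PBS replicate 1 (0.0854), 2 (0.0533) or 3 (0.0582) as well. Nor did Il16 pass by edgeR (adjusted p = 0.104) or DESeq2 (0.121), which leave out sham replicate 2. Exons of Il16 share 17.4% of their bases with genes on the opposite strand, so its counts are uncertain.

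Il2ra, the high-affinity chain of the IL-2 receptor, held 73.8, 46.8, 82.4 and 72.9 in sham, 43.7, 32.0, 44.4 and 40.4 in MI+PBS and 62.8, 29.6, 45.05 and 46.1 in MI+Agrin. The change in MI+PBS was -0.75 ± 0.23 (adjusted p = 0.0201), and it missed the threshold without sham replicate 2 (adjusted p = 0.0514), sham replicate 4 (0.0621) or MI+PBS replicate 2 (0.059). Il10rb, the second chain of the IL-10 receptor and of several related receptors, stood at 3829.9, 3801, 4292 and 3658 in sham, 3111, 2762, 2857 and 3093 in MI+PBS and 3630.2, 3112, 3412 and 3024 in MI+Agrin. Both infarcted groups lay below sham, and the change in MI+PBS was -0.40 ± 0.07 (adjusted p = 0.000716). Per kilobase of exon Il10rb had the highest level of the 44 genes in sham, 1022.9 ± 72.3 normalized counts, followed by Il6st (790.3 ± 18.3) and Il13ra1 (603.9 ± 31.7), and the ranges of 1 SD around these means did not meet. Il10rb shares 14.9% of its exon bases with another gene on the same strand, so its counts are uncertain.

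**Figure D4:**
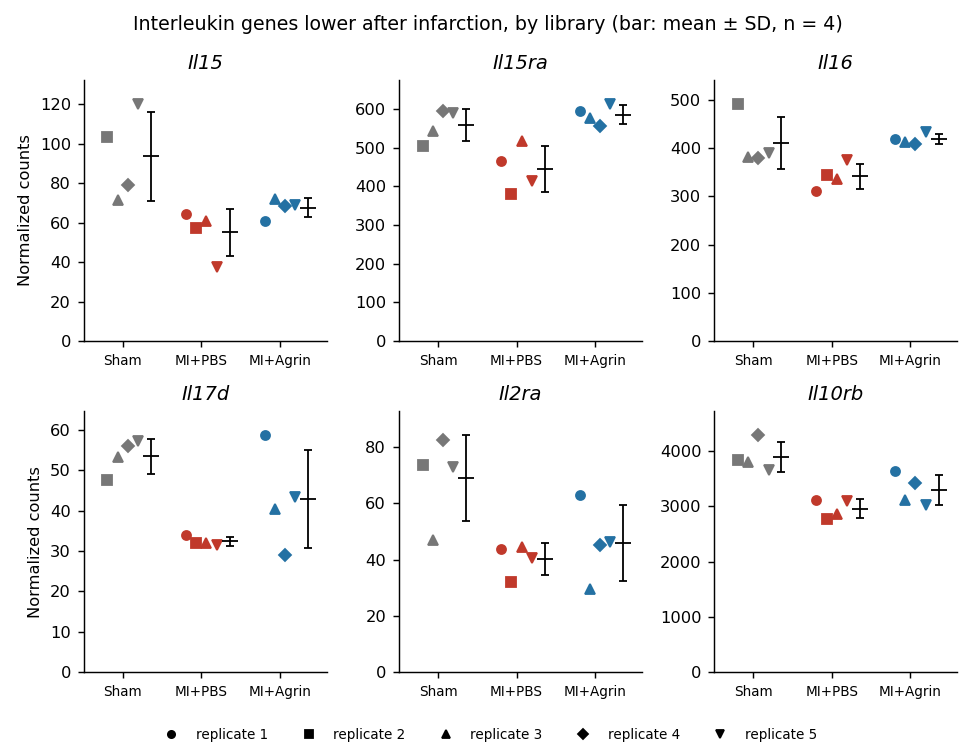
Normalized counts (vertical axis, from 0) of the 6 interleukin genes that were lower in MI+PBS than in sham, in each library, with the marker shape giving the replicate number and black bars the mean ± SD of 4 libraries. Il15ra and Il16 show MI+Agrin libraries above all MI+PBS libraries, and Il10rb shows both infarcted groups below sham.

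The 19 genes that did not pass in MI+PBS were Il1b and 18 others that passed in none of the 3 comparisons. The 18 ran from -0.42 to 1.07 in MI+PBS against sham, and they include the receptor of IL-27 (Il27ra), the second chain of the IL-12 receptor (Il12rb2), the IL-20 receptor chain Il20rb, the IL-22 receptor chain Il22ra1 and Il34, a ligand of the receptor Csf1r. Il17re had the widest error, with 0.99 to 11.1 normalized counts in sham and 1.97 to 39.5 in MI+Agrin. Il12rb2 shares 40.0% of its exon bases with a gene on the opposite strand and Il1a shares 11.2%, so their counts are uncertain as well.

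Genes downstream of these receptors were counted from lists. Among all genes tested, 22.6% were higher in MI+PBS and 21.8% lower, with a median log2 fold change of -0.01. Of 23 JAK, STAT and SOCS genes 8 were higher in MI+PBS, 3 lower and 12 not past, with a median log2 fold change of 0.02. Socs3, a feedback inhibitor that binds gp130, rose by 2.06 ± 0.18, and Ptpn6, a phosphatase of blood cells, by 0.98 ± 0.15. Stat5b (-0.45 ± 0.06) and its target Cish (-0.58 ± 0.11), which dampens signals of the common gamma and common beta receptors, fell. Of 22 genes of IL-1 receptor signalling and the inflammasome 10 were higher, 4 lower and 8 not past, with a median of 0.25. The adaptor Myd88 rose by 0.62 ± 0.10, the inhibitory kinase homologue Irak3 by 0.63 ± 0.11, and the NF-kB pathway genes Nfkbiz and Nfkb2 by 0.92 ± 0.13 and 0.28 ± 0.04.

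Of 24 related cytokine and receptor genes without an interleukin symbol, 21 were tested, of which 12 were higher, 1 lower and 8 not past (median 0.52). The oncostatin M receptor Osmr, which pairs with gp130, rose by 1.0 ± 0.09, and the receptor of granulocyte colony-stimulating factor, Csf3r, by 1.35 ± 0.14. The beta chains Csf2rb (1.28 ± 0.14) and Csf2rb2 (1.39 ± 0.15), with which Il3ra pairs, rose as well, and since the pair is near-identical in sequence their separate counts are uncertain. Of 8 symbols listed for macrophage genes known as targets of IL-4 and IL-13, with Chil3 and Chi3l3 naming the same gene, 5 were tested. Of these, 3 were higher and 1 lower. The higher ones were Mrc1 (0.96 ± 0.08), Chi3l3 (3.08 ± 0.30) and Arg1 (3.05 ± 0.39), and the lower one was Retnla (-2.39 ± 0.45). All are counts of members past the threshold, beside 22.6% of all genes higher and 21.8% lower, and no list was tested as a set.

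Cell type markers moved in the same comparison, in which 22.6% of all genes tested were higher and 21.8% lower. All 9 tested macrophage markers were higher in MI+PBS, and the summed level of the markers in the table was 20411 to 25365 normalized counts in sham, 39842 to 46733 in MI+PBS and 30153 to 45476 in MI+Agrin. Of 6 tested neutrophil markers 5 were higher, with sums of 229.5 to 327.9 in sham, 609.3 to 1111.6 in MI+PBS and 548.3 to 960.2 in MI+Agrin. Of 5 fibroblast markers 2 were higher and 1 lower, with sums of 49472 to 62700 in sham, 106430 to 116400.4 in MI+PBS and 82496 to 111440.0 in MI+Agrin. None of 7 T and NK cell markers, 4 B cell markers or 4 mast cell and basophil markers passed in either direction by limma. At an unadjusted p of 0.05, 1 T and NK cell, 0 B cell and 1 mast cell and basophil marker were higher, edgeR called 1, 0 and 0 of them, and DESeq2 1, 0 and 1. The T and NK cell sum was 83.5 to 142.5 in sham and 104.8 to 172.0 in MI+PBS. Of 6 cardiomyocyte markers 3 were lower. Of 4 endothelial markers 2 were lower, of 5 pericyte and smooth muscle markers 1 was higher and 2 lower, of 4 dendritic cell markers 1 was higher, and of 2 tested markers of group 2 innate lymphoid cells 1 was lower. None of the markers found in the table was at 0 in all libraries. In whole-tissue RNA more cells of a type and more RNA per cell cannot be told apart, and the part of these shifts in the interleukin results was not tested. Of the 19 genes that rose, MI+PBS replicate 2 was the highest MI+PBS library for 12 and replicate 5 for 5. Without replicate 2 the count of interleukin genes called was 22 of 44, against 25 with it. All genes called numbered 5735 without it and 6616 with it, of 14906 tested.

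The hearts given agrin were then compared with those given vehicle after the same infarction. Of the 44 genes 2 passed (4.55%, against 1.64% of all genes tested), with Il4ra lower (2.27%, against 0.892%) and Il15ra higher (2.27%, against 0.751%). The median was -0.03 against 0 for all genes. In 3 genes (6.82%) the groups did not overlap, against 9.04% of all genes.

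**Figure D5:**
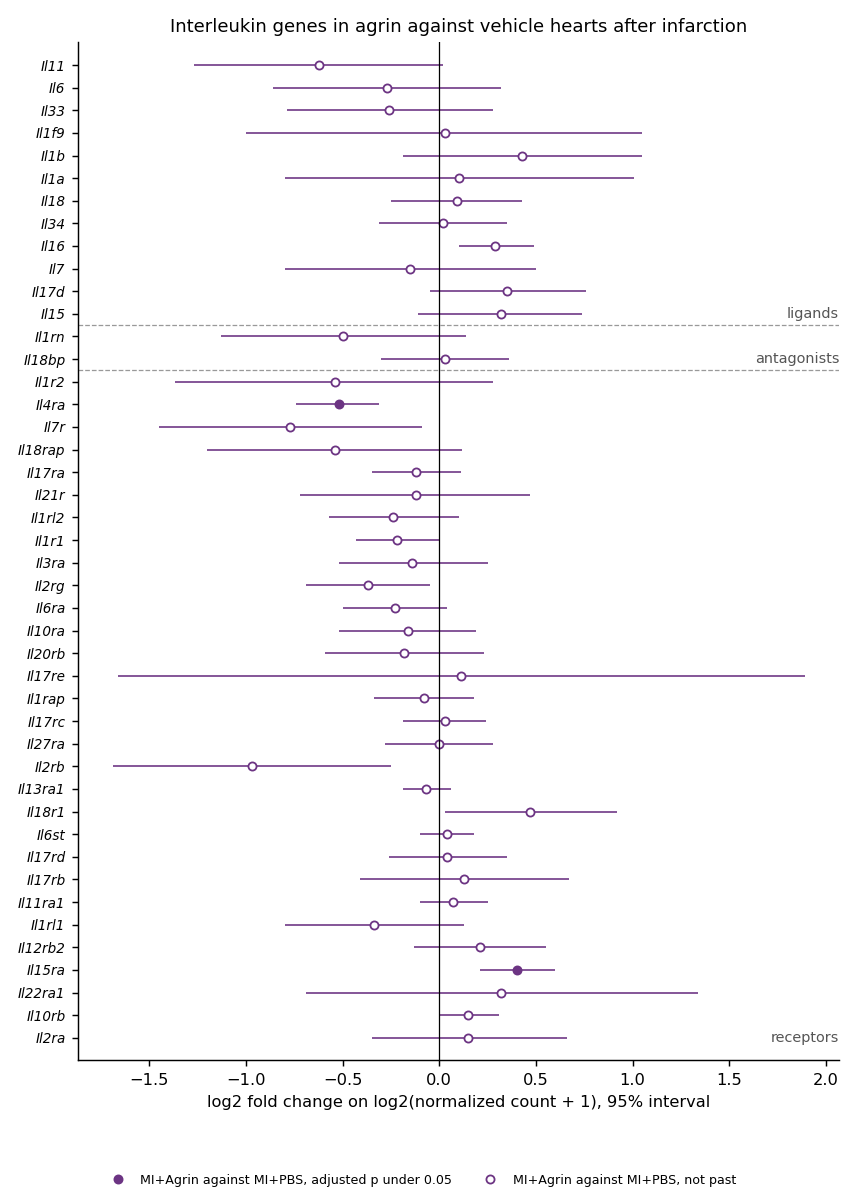
Log2 fold change of each of the 44 interleukin genes (horizontal axis, with 95% intervals) in MI+Agrin against MI+PBS, in the order of the comparison of MI+PBS with sham, with filled points past an adjusted p of 0.05. Il4ra (-0.52) and Il15ra (0.40) passed, and the intervals of most other genes span 0.

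Il4ra was lower in every agrin heart than in any vehicle heart. The highest MI+Agrin library held 2346 and the lowest MI+PBS library 2645 normalized counts. The mean in MI+Agrin was 69.4% of that in MI+PBS, and the log2 fold change was -0.52 ± 0.10 (adjusted p = 0.0178), with an interval of -0.74 to -0.31. The call was lost without MI+Agrin replicate 3 (-0.46, adjusted p = 0.0603), the lowest MI+Agrin library. The IL-4 and IL-13 target genes gave no call by limma in this comparison, with Arg1 at -0.58 ± 0.39, Chi3l3 at -0.39 ± 0.30, Mrc1 at -0.16 ± 0.08 and Retnla at 0.82 ± 0.45. Macrophage markers also gave no call by limma, although 8 of their 9 estimates were below 0 (median -0.18) and 1 was lower at an unadjusted p of 0.05, and the part of this in the Il4ra value was not tested. Of the marker lists, 3 held 1 call each by limma between the infarcted groups, all higher in MI+Agrin and named after their values were seen. Among all genes tested, 0.751% were higher there. Gata3, 1 of 2 tested markers of group 2 innate lymphoid cells, rose by 1.48 ± 0.28 (adjusted p = 0.0182). Rora, the other, did not pass (0.32 ± 0.10, adjusted p = 0.121). Klrg1 (0 to 2.03 normalized counts) and Areg (0 to 3.76) of the same list were too low to be tested. The endothelial receptor gene Kdr, 1 of 4 endothelial markers, rose by 0.56 ± 0.09 (adjusted p = 0.00756). The channel gene Kcnj8, 1 of 5 pericyte and smooth muscle markers, rose by 0.56 ± 0.07 (adjusted p = 0.00165). Estimates were above 0 for 3 of the 4 endothelial markers and for 2 of the 5 pericyte and smooth muscle markers. Cdh5 stood at -0.20 ± 0.08 (adjusted p = 0.2), and Acta2 at -0.45 ± 0.14 (adjusted p = 0.122) with groups that did not overlap. DESeq2 called 1 pericyte and smooth muscle marker lower. The part of these markers in the Il4ra and Il15ra values was not tested.

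Il15ra was higher in every agrin heart than in any vehicle heart, with 557 as the lowest MI+Agrin value and 517 as the highest MI+PBS value. The mean was 132.0% of that in MI+PBS, and the log2 fold change was 0.40 ± 0.09 (adjusted p = 0.0452). This call held without MI+PBS replicate 3 (adjusted p = 0.0149) but was lost when any other library was left out, sham libraries included, with adjusted p-values of 0.0543 to 0.108. Its ligand Il15 did not pass (0.32 ± 0.20, adjusted p = 0.393), nor did Il2rb, for which the estimate was -0.97 ± 0.33 (adjusted p = 0.16). The Il2rb values were 40.8, 23.3, 21.7 and 30.6 in MI+PBS and 7.09, 11.8, 24.4 and 17.9 in MI+Agrin, against 32.4, 26.6, 21.1 and 21.7 in sham, and the groups overlapped.

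The ligands and antagonists with the highest fold changes after infarction did not pass between agrin and vehicle. Il11 stood at -0.62 ± 0.30 (interval -1.27 to 0.02), Il1rn at -0.50 ± 0.29 (-1.13 to 0.14), Il6 at -0.27 ± 0.27 (-0.86 to 0.32) and Il33 at -0.26 ± 0.25 (-0.79 to 0.28). Without MI+PBS replicate 2 the estimates were -0.45 for Il11, -0.17 for Il1rn and 0 for Il6. Il1b had an estimate above 0, at 0.43 ± 0.29 (-0.19 to 1.05). Il16 separated the groups, all MI+Agrin libraries being above all MI+PBS libraries, but did not pass (0.29 ± 0.09, adjusted p = 0.12).

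The receptor chains that had risen in MI+PBS were likewise not past between the infarcted groups, Il4ra excepted. Il7r stood at -0.77 ± 0.31 (adjusted p = 0.218), Il2rg at -0.37 ± 0.15 (adjusted p = 0.215) and Il1r2 at -0.54 ± 0.38 (adjusted p = 0.456). For Il17ra the estimate was -0.12 ± 0.11 with an interval of -0.35 to 0.11, and for Il1r1 it was -0.22 ± 0.10 with an interval of -0.43 to 0.00. Il18r1 held 186 ± 53.6 in MI+PBS and 250.1 ± 29.0 in MI+Agrin (0.47 ± 0.21, adjusted p = 0.242). A value that misses the threshold with 4 animals a group does not show equal levels, and the intervals give the range of differences left by these data.

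Among all genes tested, 0.751% were higher in MI+Agrin than in MI+PBS and 0.892% lower. Of the downstream lists, the JAK, STAT and SOCS genes had 1 of 23 lower and none higher by limma. The IL-1 signalling and inflammasome genes had 1 of 22 lower and none higher. The lower genes were Socs2, of the SOCS family of feedback inhibitors, and Irak2, a kinase of the IL-1 receptor complex, both named after their values were seen. Socs2 fell by 0.64 ± 0.11 (adjusted p = 0.00983), from a mean of 747.3 in MI+PBS to 480.6 normalized counts in MI+Agrin. Irak2 fell by 0.91 ± 0.14 (adjusted p = 0.0059), from 501.8 to 268.6. In MI+PBS against sham they stood at 0.45 ± 0.11 and 0.64 ± 0.14. By DESeq2 1 gene of each of these lists was higher, and by edgeR 0, against 3 and 1 at an unadjusted p of 0.05. Lower genes numbered 1 and 2 by DESeq2, 1 and 1 by edgeR, and 3 and 2 at an unadjusted p of 0.05. Neither the 21 related cytokine genes nor the 5 IL-4 and IL-13 targets gave a call in either direction by limma, edgeR or DESeq2. At an unadjusted p of 0.05, 2 of the related cytokine genes were higher and 2 lower, and 0 of the IL-4 and IL-13 targets passed. Socs3 did not pass, at -0.58 ± 0.18 (adjusted p = 0.13), with means of 1065 in MI+PBS and 708 in MI+Agrin.

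Infarcted hearts given agrin were also compared with sham hearts. This comparison shares its sham libraries with that of MI+PBS, so each is given by its own values. In MI+Agrin 16 of 44 genes passed (36.4%, against 28.6% of all genes), 15 of them higher (34.1%, against 15.4%) and 1 lower (2.27%, against 13.2%). The median was 0.30 against 0 for all genes, and the groups did not overlap in 15 genes (34.1%, against 32.4%). Among ligands 5 of 12 were higher and none lower by limma, edgeR or DESeq2 (1 lower at an unadjusted p of 0.05). Among receptor chains 9 of 30 were higher and 1 lower by limma, 6 and 1 by edgeR, and 7 and 1 by DESeq2.

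The rises of the IL-6 family in MI+Agrin were those of Il11 (1.85 ± 0.30, adjusted p = 0.00109) and Il6 (1.72 ± 0.27, adjusted p = 0.000954), while Il6ra did not pass (0.36 ± 0.13, adjusted p = 0.0514). In the IL-1 family 8 of 14 genes rose (7 by edgeR and by DESeq2), against 15.4% of all genes tested. Il1rn rose by 1.95 ± 0.29 (adjusted p = 0.000749) and the decoy Il1r2 by 2.4 ± 0.38 (adjusted p = 0.000992). Il1b rose by 1.16 ± 0.29 (adjusted p = 0.0101), with the mean going from 40.0 ± 14.7 to 88.1 ± 22.0. Il33 rose by 0.98 ± 0.25, Il1r1 by 0.70 ± 0.10, Il1rl2 by 0.69 ± 0.15 and Il18 by 0.66 ± 0.16, with adjusted p-values of 0.000572 to 0.0115. Il18rap rose by 1.02 ± 0.31 (adjusted p = 0.0248) with overlapping groups, since MI+Agrin replicates 1 and 3 lay below the highest sham library.

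Il4ra was above sham in every agrin heart (1.22 ± 0.10, adjusted p = 3.58e-05), as was Il17ra (1.14 ± 0.11, adjusted p = 7.56e-05). Il21r rose by 1.12 ± 0.27 (adjusted p = 0.00977), Il17rc by 0.34 ± 0.10 (adjusted p = 0.0228) and Il3ra by 0.55 ± 0.18 (adjusted p = 0.0348). Il10rb was the gene that fell (-0.24 ± 0.07, adjusted p = 0.0217). Il15ra stood at 0.07 ± 0.09 and Il16 at 0.03 ± 0.09 against sham, and their intervals were -0.13 to 0.27 and -0.16 to 0.23. Il7r, Il2rg, Il10ra and Il1rap did not pass in MI+Agrin, at 0.87 ± 0.31, 0.24 ± 0.15, 0.35 ± 0.16 and 0.27 ± 0.12.

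The weakest of these calls depended on single libraries. Il10rb missed the threshold without sham replicate 4 (adjusted p = 0.0702), MI+Agrin replicate 3 (0.0559) or MI+Agrin replicate 5 (0.0691). Il17rc missed it without sham replicate 2 (0.0601) or 4 (0.071) and without MI+Agrin replicate 4 (0.0739) or 5 (0.0617). For Il18rap this held without sham replicate 2 (0.0627), 3 (0.063) or 4 (0.0633) and without MI+Agrin replicate 4 (0.0691) or 5 (0.0787). For Il3ra it held without sham replicate 2 (0.0819), 3 (0.057) or 4 (0.1) and without MI+Agrin replicate 1 (0.0605), 3 (0.0583) or 4 (0.0906). In the count tests Il18rap missed the threshold by edgeR (0.078) and DESeq2 (0.0845). Il3ra missed it by both as well (0.0816 and 0.0579), and Il17rc by edgeR (0.0578). Il11, Il6, Il1rn, Il1r1, Il1r2, Il1rl2, Il4ra, Il17ra, Il18, Il21r, Il33 and Il1b kept their calls against sham in MI+Agrin whichever library was left out. Other genes gained a call when a single library was left out. Without MI+Agrin replicate 1, Il10ra (0.04), Il6ra (0.029) and Il7r (0.0342) passed as higher, and Il17d (0.0419) and Il2ra (0.0286) as lower. Il6ra and Il7r also passed without sham replicate 5 (0.0484 and 0.0463) or MI+PBS replicate 2 (0.0455 and 0.0258). Il6ra and Il1rap passed without MI+Agrin replicate 3 (0.0402 and 0.0407), Il7r without MI+PBS replicate 5 (0.0424) and Il2ra without sham replicate 3 (0.0289).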

How the data were processed

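Poly-A RNA of 12 mouse hearts was sequenced as 61 bp single reads, 1 library per animal. The submitters' processing notes name the mm10 genome and the tools STAR 2.4.2a, DESeq2 1.10.1, HTSeq and cutadapt. What each tool did, which annotation was counted and with which strand setting is not stated in the sources used here, so reads of overlapping genes cannot be assigned with certainty. The deposited signal values are normalized read counts per the file headers. Dividing by the smallest step of a library gave whole numbers within 0.0055 for 99.84% to 100% of values in 11 libraries, with 20238512 to 22742027 reads each. For sham replicate 2 the step was too close to 1 to be read, and count tests leave that library out.

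The 44 genes were chosen by symbol and a mean of at least 5, and they and the pathway and marker lists were chosen with earlier results of these data known. All 12 libraries entered a limma fit (version 3.58.1 in R 4.3.3, trend option) on log2(value + 1) for 14906 genes, with Benjamini-Hochberg adjustment at 0.05. The branch of the design for normalized values was used, since the table holds no raw counts. Genes past the threshold in any comparison, and the ligands or antagonists of such receptors, are described with every library, and up to 4 genes of each pathway list with the smallest p are named. Replicate numbers were not used to pair the animals. The steps were tested on simulated data. Alternatives were other pseudocounts, filters, scaling, weights, thresholds and libraries, a replicate block, and count tests of the recovered reads in DESeq2 1.42.0 and edgeR 4.0.16. The p-values measure the spread between animals, as the design text states 4 animals per group.

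All 44 symbols matched GENCODE M21 for coordinates and exon lengths, and levels per kilobase divide by the length of all annotated exons. Plots were made in Python 3.11.15 using matplotlib 3.10.9.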

Additional observations from a re-analysis of the deposited data

Results flagged for a closer look

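In 26 genes that passed in at least 1 comparison, each of the 3 groups of 4 libraries was checked for a library far from the rest, and 5 of 78 groups held such a library, where chance gives about 1 in 20. MI+PBS replicate 2 stood above the other MI+PBS libraries for Il1rn (344.34 normalized counts against 123 to 160.4) and for Il17ra (746.88 against 534 to 571). MI+PBS replicate 3 stood below the others of its group for Il3ra (119.89 against 205 to 214), within the sham range. Sham replicate 2 stood above the other sham libraries for Il16 (492.26 against 379 to 390.1), and sham replicate 5 above the others for Il18rap (14.78 against 6.39 to 7.40).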

How the results depend on the processing

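Of 1791 fold changes recomputed under other settings than the threshold, no call changed direction, 1689 kept their side of the threshold, 75 lost the call and 27 gained it. The sign changed for 4 estimates of MI+Agrin against MI+PBS that were not called, each with 1 library left out: Il17rc (0.03 as reported, -0.02 and -0.03), Il1rap (-0.08, then 0.01) and Il2ra (0.15, then -0.01). The count of interleukin genes called in MI+PBS against sham was 25 as reported. It was 19 to 29 under other settings and 21 to 26 with 1 library left out. All genes called in that comparison numbered 6616, with 4451 at 0.01, 7745 at 0.1 and 5638 to 6738 with 1 library left out. Of the 25 calls, 20 were kept in every one of the 23 settings other than the thresholds that tested them. In MI+Agrin against MI+PBS, 2 genes were called as reported, 1 without the filter on low values, 1 without the intensity trend, 1 with array quality weights, 1 by edgeR on recovered reads, 0 with only the 8 libraries of both groups, 0 at an adjusted p of 0.01, 3 by DESeq2, and 0 to 2 with 1 library left out. All genes called there numbered 245, and 93 with 8 libraries, 83 at 0.01, 594 at 0.1, 602 by DESeq2 and 137 to 327 with 1 library left out. Il4ra missed the threshold in 3 of 23 settings (adjusted p 0.000234 to 0.0706) and Il15ra in 17 of 23 (0.00346 to 0.176). In MI+Agrin against sham 16 genes were called, 10 at an adjusted p of 0.01, and 12 to 20 with 1 library left out. All genes called in that comparison numbered 4261, with 2062 at 0.01 and 3072 to 4707 with 1 library left out. The cause of these shifts was not tested, except that a stricter threshold leaves fewer calls by construction. Leaving out libraries moved the counts both ways. Against sham, MI+Agrin had 20 calls without its replicate 1 (4169 of all genes) and 12 without sham replicate 4 (3072 of all genes). A fit without the MI+PBS group gave 18 there (4676 of all genes). The replicate numbers gave correlations of -0.29 to 0.12 between same-numbered animals, 1 of 9 over 0.1, and 1 of 12 libraries correlated best with its own number. They were therefore not used as pairs, although correlations of so few animals cannot exclude a pairing. With the replicate block 22, 0 and 14 interleukin genes were called in the 3 comparisons, beside 5727, 75 and 3660 of all genes. Rescaling by TMM left the median of all genes where it was. Few reads lie behind some genes: Il17re had 39 recovered reads in MI+Agrin replicate 1 and 2 to 5 in the other MI+Agrin libraries.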

Other observations

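The balance of the IL-1 antagonist gene to its agonist gene was looked at after the values were seen and carries no test. The ratio of Il1rn to Il1b normalized counts was 0.633, 1.0, 1.19 and 0.618 in sham, 3.17, 4.80, 2.66 and 1.42 in MI+PBS, and 1.45, 1.38, 1.87 and 1.15 in MI+Agrin. MI+PBS lay above sham in all 4 libraries, and MI+Agrin overlapped both groups. The ratio of the decoy Il1r2 to Il1r1 was 0.00398 to 0.0120 in sham, 0.0214 to 0.0532 in MI+PBS and 0.0196 to 0.0297 in MI+Agrin, so that both infarcted groups lay above sham.

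Il13ra2, the second IL-13 receptor, known mainly as a decoy, was below the threshold of the mean and was not tested. It held 0, 0, 1.06 and 0 normalized counts in sham, 4.86, 5.82, 7.23 and 13.8 in MI+PBS, and 2.03, 5.92, 5.63 and 6.58 in MI+Agrin. Every infarcted library lay above every sham library, at 2 to 14 recovered reads. Il10 was similarly low, with 1.06 to 3.19 in sham, 0.97 to 6.90 in MI+PBS and 0.94 to 6.57 in MI+Agrin, which overlap.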
